A study of Homo sapiens with 60 samples.

Results

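PC9 is a human lung adenocarcinoma line whose growth depends on an EGFR with an exon 19 deletion. The libraries described here are the 3 of PC9 drug-tolerant persisters (DTPs), the cells left after 21 days in 500 nM osimertinib, and the 3 of PC9 DMSO controls. They were taken by their column names in the table of estimated counts and make up 6 of the 60 RNA-Seq libraries of the series. The series holds 4 EGFR-mutant NSCLC lines (PC9, HCC827, H1975 and HCC2935), each with DMSO, acute osimertinib, DTP, short washout and long washout arms in triplicate. The controls had spent 21 days without drug and then received DMSO, the solvent, for 24 h. The acute arm, used below as a second reference, received 500 nM osimertinib for 24 h. The labels name no genetic modification in any arm. Replicates are named biological triplicates in the labels, without saying whether DTPs were raised from separate starting cultures, so p-values measure the spread between these libraries. PC9 is a single line, and a bulk library averages over survivors that may differ from each other.

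EGFR drives growth through the RAS-ERK cascade, which switches on immediate genes and its own phosphatases, and through PI3K and AKT, which hold FOXO transcription factors out of the nucleus. Osimertinib binds the kinase domain of mutant EGFR covalently and blocks both branches. Persisters are a small share of cells that outlive the drug without a resistance mutation, divide slowly or not at all, and can grow again once the drug is withdrawn.

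Of 14382 genes tested in PC9 DTPs against DMSO, 10253 were called at an adjusted p under 0.05 (edgeR quasi-likelihood test with Benjamini-Hochberg adjustment), or 71.3%. Of the genes tested, 35.4% were called higher and 35.9% lower, and 4303 of the called genes differed at least 2-fold, 2662 of them higher and 1641 lower. Genes low in both groups were not tested, while a gene near 0 under DMSO could be tested through its DTP counts alone. This can raise the share called higher and the median of a list whose genes are mostly low under DMSO. With most genes called, a list of genes is read below against these shares and against the median of all genes tested, a log2 fold change of 0.02. The median was 0.18 with scaling by library size alone and 0.29 on the deposited log2 TPM values, against which 65.5% of the calls were higher, compared with 49.7% after TMM normalization, so that changes under about 0.3 on the log2 scale depend on the scaling. The 6 libraries held 34679067 to 47111694 estimated counts. The 8 epithelial markers summed to 10480 to 10803 CPM under DMSO and to 10123 to 10430 CPM in DTPs, while 8 of 10 fibroblast markers and 9 of 11 leukocyte markers stayed under 1 CPM in all 6 libraries. The fibroblast markers, 3 of 4 tested called higher and none lower, summed to 17.1 to 23.6 CPM under DMSO and to 32.6 to 41.6 CPM in DTPs. The neuroendocrine markers, 2 of 5 tested called higher and none lower, summed to 3.14 to 5.29 and to 11.3 to 13.1 CPM, and the squamous markers, 2 of 4 higher and 1 lower, to 62.2 to 88.5 and to 92.8 to 142 CPM. Their part in the results was not tested. CPM stands for counts per 1000000 after TMM normalization, and the p beside a log2 fold change is edgeR's adjusted p. The ± after a log2 fold change is an approximate standard error, the absolute log2 fold change divided by the square root of the test's F statistic. In bulk RNA, a lower level can reflect fewer cells that express a gene or less of its RNA per cell, and these cannot be told apart.

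**Figure D1:**
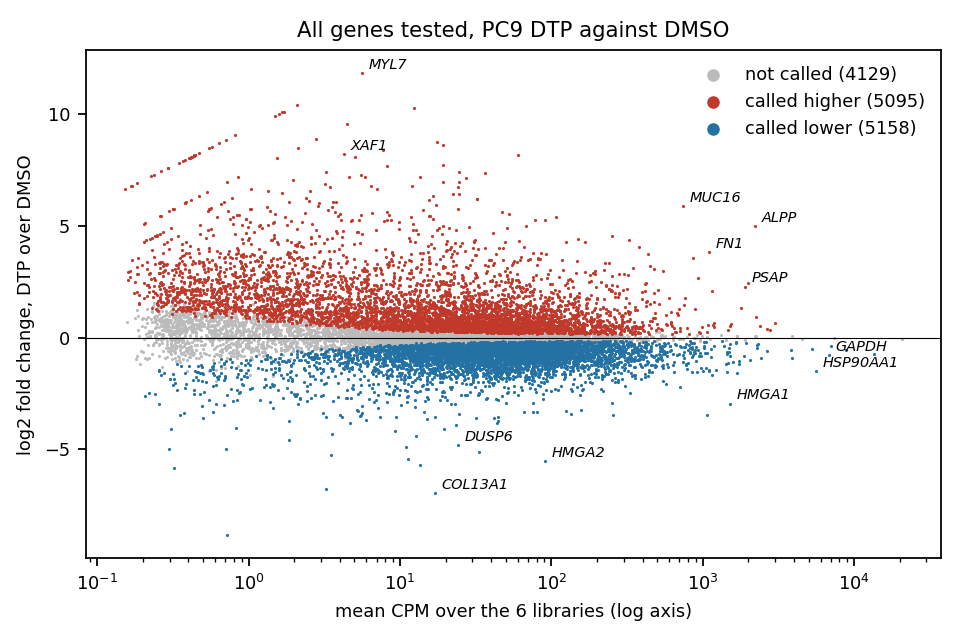
Log2 fold change of each of the 14382 genes tested (DTP over DMSO) against its mean CPM over the 6 libraries on a log axis, coloured by call, with a few genes named. The 5095 genes called higher and 5158 called lower are balanced in number, while at the right end, among the most abundant transcripts, GAPDH and HSP90AA1 lie below 0. For genes silent under DMSO the fitted value depends on the prior count of edgeR.

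The genes that ERK switches on were largely lower after 21 days of drug. Of 20 tested, 15 were called lower and 1 higher, with a median log2 fold change of -1.31. DUSP6, the cytoplasmic phosphatase that turns ERK off and is itself an ERK target (chromosome 12, 89347232 to 89353271, GENCODE release 29 on GRCh38), stood at 39.1, 45.3 and 54.8 CPM under DMSO and 1.62, 1.04 and 2.23 CPM in DTPs (log2 fold change -4.82 ± 0.24, adjusted p = 1.18e-07). SPRY4, a feedback inhibitor of receptor signalling, stood at 34.7, 35.1 and 40.3 CPM under DMSO and 2.66, 1.58 and 2.23 CPM in DTPs (log2 fold change -4.09 ± 0.17, adjusted p = 5.89e-08). DUSP4, a nuclear ERK phosphatase, was at 233, 228 and 229.7 CPM under DMSO and 56.5, 38.5 and 37.6 CPM in DTPs (log2 fold change -2.38 ± 0.14, adjusted p = 3.73e-07). All DTP libraries lay below all DMSO libraries for each of these genes. The member called higher was FOS, an immediate early transcription factor, at 16.4, 7.24 and 11.3 CPM under DMSO and 67.1, 128 and 282 CPM in DTPs (log2 fold change 3.79 ± 0.50, adjusted p = 8.03e-05). Every DTP library lay above every DMSO library for FOS, but the DTP values were wide apart, with the third library highest. The genes not called were IL11, CCND1, SPRED3 and EGR1, of which EGR1 was called without DMSO replicate 1 or DTP replicate 1 (adjusted p from 0.00538 to 0.0197, log2 fold change from 2.35 to 3.21). CCND1, the D-type cyclin of G1, was at 578, 510.2 and 466 CPM under DMSO and 517, 428 and 536 CPM in DTPs, groups that overlap.

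Receptors and ligands of the EGFR family moved in both directions: 6 of 14 tested were called higher and 3 lower (median 0.69). EGFR itself stood at 1732, 1689.9 and 1905 CPM under DMSO and 1579.7, 1475 and 1532 CPM in DTPs (log2 fold change -0.22 ± 0.058, adjusted p = 0.00764). The call ended with scaling by library size alone (log2 fold change -0.057, adjusted p = 0.372) and on log2 TPM (log2 fold change 0.052, adjusted p = 0.548). ERBB2, which has no ligand of its own and pairs with the other members, was at 128, 126 and 124 CPM under DMSO and 301, 323 and 309 CPM in DTPs (log2 fold change 1.31 ± 0.058, adjusted p = 7.36e-08). ERBB3, which couples to PI3K, was at 70.8, 91 and 94.1 CPM under DMSO and 201, 232 and 213 CPM in DTPs (log2 fold change 1.34 ± 0.11, adjusted p = 2.56e-06). Both receptors were more than 2-fold higher, with no overlap between the groups. Among the ligands, BTC (betacellulin) was highest by fold, at 4.8, 4.38 and 4.49 CPM under DMSO and 24.3, 33 and 25.3 CPM in DTPs (log2 fold change 2.60 ± 0.15, adjusted p = 2.49e-07). HBEGF was lowest, at 56.5, 45.2 and 69.9 CPM under DMSO and 11.3, 8.6 and 13.4 CPM in DTPs (log2 fold change -2.36 ± 0.19, adjusted p = 2.56e-06). Thus ligand genes differed in sign, and NRG2, NRG4 and EREG were also called higher, while AREG, TGFA, NRG1 and EGF were not called. EREG was not called when all 15 PC9 libraries entered the fit (log2 fold change 0.59, adjusted p = 0.187) or all 60 libraries did (log2 fold change 0.57, adjusted p = 0.154). NRG4 was not called without DTP replicate 1 (adjusted p = 0.051, log2 fold change 0.97), and not called with all 60 libraries (log2 fold change 1.11, adjusted p = 0.342). EGF was called without DMSO replicate 2 or DTP replicate 1 (adjusted p from 0.0117 to 0.0422, log2 fold change from 1.32 to 1.68). ERRFI1, an inhibitor that binds EGFR, was called lower (log2 fold change -0.92 ± 0.071, adjusted p = 1.98e-06).

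Other receptor kinases able to bypass EGFR gave 7 of 18 called higher and 5 lower (median 0.03). MET was at 144, 168 and 156 CPM under DMSO and 159, 136 and 145 CPM in DTPs (log2 fold change -0.087 ± 0.081, adjusted p = 0.358). IGF1R was at 3.63, 6.8 and 6.14 CPM under DMSO and 3.75, 4.19 and 9.8 CPM in DTPs (log2 fold change 0.10 ± 0.37, adjusted p = 0.816). Neither was called, and the groups overlapped for both. AXL, a receptor for GAS6, fell from 225, 201 and 202 CPM under DMSO to 96.3, 82.8 and 98 CPM in DTPs (log2 fold change -1.18 ± 0.083, adjusted p = 1.03e-06). ROR1, an orphan receptor kinase, fell from 85.5, 66.2 and 81.6 CPM under DMSO to 9.89, 11.4 and 12 CPM in DTPs (log2 fold change -2.81 ± 0.12, adjusted p = 6.29e-08). The highest member by fold was the ligand IGF1, at 0.485, 0.0889 and 0.193 CPM under DMSO and 2.55, 3.82 and 2.49 CPM in DTPs (log2 fold change 3.56 ± 0.51, adjusted p = 0.000145), still a low level. Among SRC-family and focal adhesion genes, 7 of 15 were called higher and 5 lower, or 3 lower without DMSO replicate 3. SRC was at 29.1, 33.2 and 25.2 CPM under DMSO and 40.03, 36 and 43.1 CPM in DTPs (log2 fold change 0.45 ± 0.11, adjusted p = 0.00581). FYN was at 76.7, 79.7 and 73.6 CPM under DMSO and 216, 191 and 190.2 CPM in DTPs (log2 fold change 1.38 ± 0.073, adjusted p = 1.83e-07). YES1 was at 151, 163 and 177 CPM under DMSO and 120.0, 98.6 and 108 CPM in DTPs (log2 fold change -0.59 ± 0.088, adjusted p = 0.0002). FYN and SRC were thus higher and YES1 lower.

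**Figure D2:**
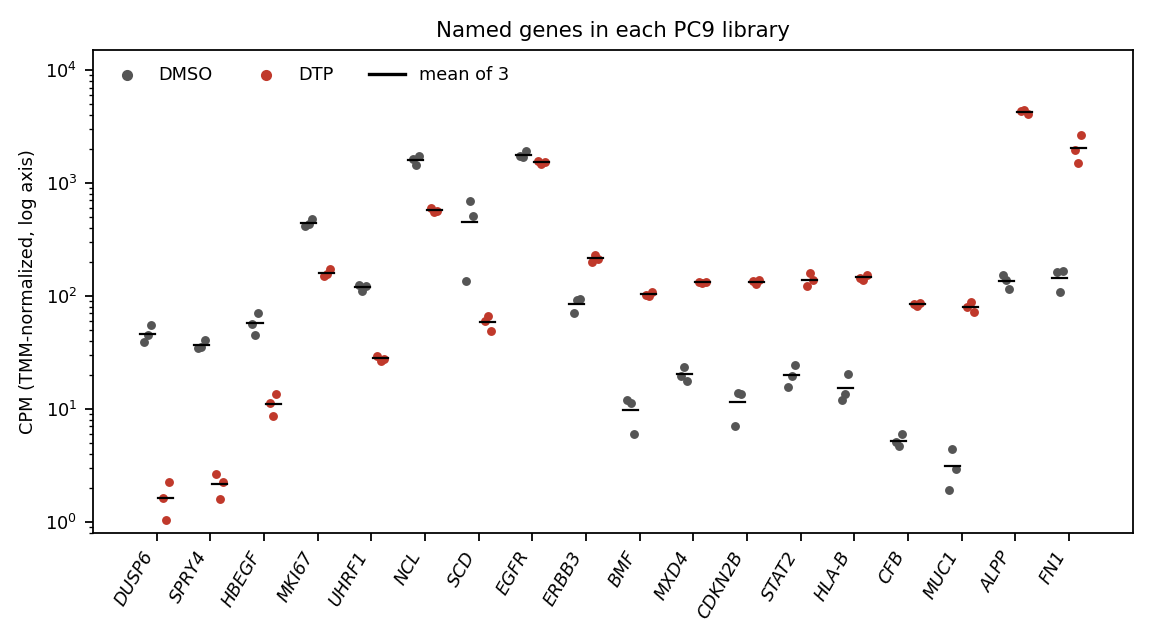
CPM of 18 named genes in each PC9 library on a log axis, with DMSO in grey, DTP in red and a bar at the mean of 3. DUSP6 and SPRY4 drop from between 34.7 and 54.8 CPM to between 1.04 and 2.66 CPM, EGFR stays near its DMSO level, and ALPP climbs from between 116 and 151 CPM to between 4067 and 4432 CPM.

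On the PI3K side, 16 of 31 tested genes of the PI3K and FOXO list were called higher and 8 lower (median 0.34), or 5 lower without DMSO replicate 3. PIK3IP1, a membrane inhibitor of PI3K, was at 1.28, 2.49 and 1.46 CPM under DMSO and 50.1, 54.5 and 62.1 CPM in DTPs (log2 fold change 4.96 ± 0.21, adjusted p = 5.88e-08). FOXO4 was at 5.54, 8.51 and 6.91 CPM under DMSO and 33.7, 40.3 and 34.3 CPM in DTPs (log2 fold change 2.36 ± 0.16, adjusted p = 6.83e-07), while FOXO1 (log2 fold change 0.30 ± 0.12, adjusted p = 0.0502) and FOXO3 (log2 fold change -0.090 ± 0.075, adjusted p = 0.303) were not called. FOXO1 was called without DTP replicate 2 (adjusted p = 0.0244, log2 fold change 0.38). TRIB2, a pseudokinase that restrains FOXO proteins, was lowest, at 74.5, 83.5 and 85.8 CPM under DMSO and 6.38, 5.51 and 5.33 CPM in DTPs (log2 fold change -3.83 ± 0.10, adjusted p = 5.77e-09). The FOXO targets CCNG2, FBXO32, TXNIP and BTG1 were called higher, between 1.05 and 2.12 on the log2 scale, and IRS2, SESN1 and KLF15 were not called. These 7 were picked from the list after their values were seen. The sequence GTAAACA, bound by forkhead factors, occurs on either strand in 5 of 27 promoters of this list (18.5%) and in 3.41% of 27305 promoters in RefSeq's GRCh38.p14 annotation, with a promoter taken as 250 bases before to 50 after the gene start. In the ERK output list, the AP-1 site TGANTCA occurs in 2 of 12 promoters (16.7%), against 7.76% of all promoters.

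Genes of the BH3-only proteins, which start apoptosis by binding BCL2 relatives, were called higher in 6 of 8 and lower in 1 (median 0.90). BMF, a BH3-only gene on chromosome 15 (40087890 to 40108892), was at 11.9, 11.3 and 6 CPM under DMSO and 103, 99.5 and 108 CPM in DTPs (log2 fold change 3.40 ± 0.21, adjusted p = 4.26e-07). BCL2L11, which encodes BIM, was at 22.2, 24.1 and 26.9 CPM under DMSO and 61, 58 and 66.2 CPM in DTPs (log2 fold change 1.34 ± 0.094, adjusted p = 1.03e-06). BBC3, which encodes PUMA, was at 1.83, 2.64 and 3.31 CPM under DMSO and 11, 10.7 and 12.6 CPM in DTPs (log2 fold change 2.13 ± 0.21, adjusted p = 9.75e-06). In each of these 3 genes all DTP libraries lay above all DMSO libraries, and the BMF groups were furthest apart. BIK was the member called lower (log2 fold change -0.60 ± 0.22, adjusted p = 0.0294). It was not called without DMSO replicate 2 or 3 or DTP replicate 2 or 3 (adjusted p from 0.0562 to 0.0983, log2 fold change from -0.61 to -0.47), and BID was not called. Among antiapoptotic genes and effectors 4 of 13 were called higher and 5 lower. MCL1 was at 234, 204 and 255 CPM under DMSO and 219.9, 241 and 291 CPM in DTPs (log2 fold change 0.12 ± 0.11, adjusted p = 0.356). BCL2L1, which encodes BCL-XL, was at 235, 247 and 242 CPM under DMSO and 210.2, 199.9 and 211 CPM in DTPs (log2 fold change -0.22 ± 0.057, adjusted p = 0.00582), and not called on log2 TPM (log2 fold change 0.046, adjusted p = 0.549). BIRC7, an inhibitor of apoptosis that is nearly silent under DMSO, was at 0.114, 0.19999 and 0.110 CPM under DMSO and 7.18, 5.56 and 9.32 CPM in DTPs (log2 fold change 5.63 ± 0.34, adjusted p = 4.09e-07). BIRC5, the mitotic member of that family, was at 160.3, 150.4 and 142 CPM under DMSO and 47.5, 43.5 and 42.9 CPM in DTPs (log2 fold change -1.76 ± 0.076, adjusted p = 6.37e-08).

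Every one of 36 mitosis genes tested was called lower (median -1.53, between -1.97 and -0.99), and so were 33 of 34 DNA replication genes (median -1.23) and 21 of 24 genes of homologous recombination and the Fanconi pathway (median -0.97). MKI67, the proliferation antigen, was at 415, 429.5 and 477 CPM under DMSO and 149, 157 and 173 CPM in DTPs (log2 fold change -1.46 ± 0.077, adjusted p = 1.8e-07). CDC20, the activator of the anaphase-promoting complex, was at 277, 249 and 269.9 CPM under DMSO and 66.4, 69.8 and 66.2 CPM in DTPs (log2 fold change -1.97 ± 0.067, adjusted p = 2.1e-08). UHRF1, which recruits DNMT1 to newly made DNA, was at 126, 112 and 122 CPM under DMSO and 29.6, 26.8 and 27.8 CPM in DTPs (log2 fold change -2.09 ± 0.079, adjusted p = 3.4e-08). MCM3, part of the replicative helicase, was at 319, 286 and 294 CPM under DMSO and 109, 114 and 102 CPM in DTPs (log2 fold change -1.47 ± 0.07, adjusted p = 1.07e-07). The groups did not overlap for any of these genes, and transcripts of each remained well above 10 CPM in all DTP libraries. E2F1, the transcription factor that opens S phase, was the replication gene not called, at 60.2, 54.5 and 50.3 CPM under DMSO and 49, 52.5 and 46.8 CPM in DTPs (log2 fold change -0.15 ± 0.087, adjusted p = 0.138). FANCC was the gene of the recombination list called higher (log2 fold change 0.32 ± 0.079, adjusted p = 0.00494).

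Many mitosis promoters and some DNA replication promoters hold the short sequences named below. These sequences did not enter the choice of the lists, but the lists hold well-known cell-cycle genes, so the shares are description only. Promoters were at hand for 30 of 36 mitosis genes and 30 of 34 replication genes. TTTGAA, the cell-cycle homology region, occurs on either strand in 20 of 30 mitosis promoters (66.7%) against 15.4% of all promoters, and CCAAT in 24 of 30 (80.0%) against 35.7%. TTTGGCGC, an E2F site, occurs in 6 of 30 replication promoters (20%) against 0.659%. The promoters of CDC20 (chr1:43358731-43359030, plus strand) and of CDC6, which loads the helicase (chr17:40287629-40287928, plus strand), are given 5′ to 3′ from RefSeq on GRCh38.p14, as the members of each list with the largest change that hold the motif. Capitals mark TTTGAA or its reverse complement in CDC20 and TTTGGCGC in CDC6.
CDC20: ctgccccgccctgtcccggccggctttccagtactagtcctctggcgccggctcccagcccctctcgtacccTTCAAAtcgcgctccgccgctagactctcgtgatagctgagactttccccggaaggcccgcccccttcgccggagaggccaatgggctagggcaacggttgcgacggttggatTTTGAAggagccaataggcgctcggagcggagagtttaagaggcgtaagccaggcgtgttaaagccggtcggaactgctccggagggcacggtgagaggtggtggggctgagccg
CDC6: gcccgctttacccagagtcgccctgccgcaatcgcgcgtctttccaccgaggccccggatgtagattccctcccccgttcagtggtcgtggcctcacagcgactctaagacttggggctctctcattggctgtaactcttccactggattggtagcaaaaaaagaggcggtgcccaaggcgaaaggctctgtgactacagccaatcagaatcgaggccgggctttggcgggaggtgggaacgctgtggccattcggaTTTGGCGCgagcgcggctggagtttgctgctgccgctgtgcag
The match nearest to the CDC20 start begins 65 bases before it, and the match in CDC6 begins 7 bases after the gene start. CDC6 itself was at 114, 134 and 133 CPM under DMSO and 36.9, 39.6 and 36.6 CPM in DTPs (log2 fold change -1.75 ± 0.084, adjusted p = 1.09e-07).

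The G1 cyclins, kinases and inhibitors moved in both directions: 8 of 16 were called higher and 3 lower (median 0.21). CDKN2B, which encodes the CDK4 and CDK6 inhibitor p15, was at 7.11, 13.8 and 13.6 CPM under DMSO and 136, 126 and 137 CPM in DTPs (log2 fold change 3.53 ± 0.21, adjusted p = 3.43e-07). CDKN1B, which encodes p27, was at 45.8, 55 and 62.8 CPM under DMSO and 70.4, 76.2 and 77.1 CPM in DTPs (log2 fold change 0.45 ± 0.11, adjusted p = 0.00412). CDKN1A, which encodes p21, was at 20.8, 23 and 27.9 CPM under DMSO and 33.9, 26.7 and 56.6 CPM in DTPs (log2 fold change 0.71 ± 0.24, adjusted p = 0.0223). The 3 inhibitors were called higher, with no overlap for p15 and p27, whereas the CDKN1A value of the second DTP library fell inside the DMSO range. CDKN1A was not called without DMSO replicate 1 or 2 or DTP replicate 3 (adjusted p from 0.0594 to 0.0749, log2 fold change from 0.34 to 0.68). CDKN1C, which encodes p57, was low in all libraries (log2 fold change 1.62 ± 0.43, adjusted p = 0.00716), and CDKN2A was not called (log2 fold change -0.099 ± 0.07, adjusted p = 0.229). CCNE1, the cyclin of S-phase entry, was at 32.5, 31.7 and 32.9 CPM under DMSO and 10.2, 9.21 and 10.2 CPM in DTPs (log2 fold change -1.72 ± 0.093, adjusted p = 2.12e-07).

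Genes for building ribosomes were lower as a group. None of 26 ribosome biogenesis genes was called higher and 24 were called lower (median -1.31), and all 26 cytosolic ribosomal protein genes were called lower (median -0.56). Nucleolin, NCL, was at 1628, 1456 and 1749 CPM under DMSO and 604, 556 and 559 CPM in DTPs (log2 fold change -1.49 ± 0.073, adjusted p = 1.19e-07). The nucleolar chaperone NPM1 was at 2503, 2292 and 2494 CPM under DMSO and 1088, 1029 and 1049 CPM in DTPs (log2 fold change -1.20 ± 0.054, adjusted p = 7.59e-08). Fibrillarin, FBL, was at 207, 196 and 211 CPM under DMSO and 79.6, 70.9 and 66.1 CPM in DTPs (log2 fold change -1.50 ± 0.08, adjusted p = 1.89e-07). All DTP libraries lay below all DMSO libraries for each of the 3. LYAR was lowest (log2 fold change -2.43 ± 0.10, adjusted p = 5.72e-08), and POLR1C, a subunit of RNA polymerases I and III, was not called (log2 fold change -0.050 ± 0.16, adjusted p = 0.796). Ribosomal protein genes differed less. RPS2 was lowest (log2 fold change -1.18 ± 0.059, adjusted p = 1.31e-07). RPS12 changed least (log2 fold change -0.15 ± 0.047, adjusted p = 0.0139). It was not called without DTP replicate 3 (adjusted p = 0.0569, log2 fold change -0.15) or on log2 TPM (log2 fold change 0.11, adjusted p = 0.128). RPLP0 stood at 1345, 1348 and 1314 CPM under DMSO and 1070.2, 1014 and 1022 CPM in DTPs (log2 fold change -0.37 ± 0.048, adjusted p = 7.58e-05), and was not called on log2 TPM (log2 fold change -0.10, adjusted p = 0.178), where 18 of the 26 were called lower. Many of these genes have processed pseudogenes, among which the counting could have split reads. In the MYC network, MYC was at 245, 205 and 235 CPM under DMSO and 116, 129.9 and 202 CPM in DTPs (log2 fold change -0.61 ± 0.18, adjusted p = 0.0109), with the third DTP library just below the lowest DMSO library and no call on log2 TPM (log2 fold change -0.39, adjusted p = 0.188). MXD4, which competes with MYC for its partner MAX, was at 19.4, 23.6 and 17.5 CPM under DMSO and 133, 130.0 and 133 CPM in DTPs (log2 fold change 2.71 ± 0.11, adjusted p = 4.38e-08).

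Genes of energy metabolism were mostly lower. Of 29 respiratory chain genes, 27 were called lower and none higher (median -0.63, although 17 were called lower on log2 TPM), and 7 of 9 mitochondrially encoded genes were called lower (median -0.55). ATP5MC1, a subunit of the ATP synthase ring, was lowest among the nuclear genes (log2 fold change -1.37 ± 0.071, adjusted p = 1.61e-07). MT-ND4 was at 15445, 17456 and 18359 CPM under DMSO and 9168, 11000.1 and 10225 CPM in DTPs (log2 fold change -0.75 ± 0.078, adjusted p = 1.43e-05). In glycolysis and its hypoxia-responsive partners, 16 of 25 were called lower and 5 higher (median -0.89). HK2, the inducible hexokinase, was at 92.5, 97.9 and 132 CPM under DMSO and 25.4, 18.4 and 20.2 CPM in DTPs (log2 fold change -2.34 ± 0.16, adjusted p = 8.52e-07). GPI was at 524, 459 and 549 CPM under DMSO and 219, 213 and 188 CPM in DTPs (log2 fold change -1.30 ± 0.085, adjusted p = 6.39e-07). GAPDH was at 8926, 8014 and 8821 CPM under DMSO and 5118, 4828 and 4972 CPM in DTPs (log2 fold change -0.79 ± 0.053, adjusted p = 7.52e-07). For these 3 genes all DTP libraries lay below all DMSO libraries. The 5 higher members, EGLN3, NDRG1, ADM, PFKFB3 and ANKRD37, are hypoxia-responsive or regulatory genes rather than enzymes of the main glycolytic steps. ANKRD37 was not called without DMSO replicate 1 or 2 or DTP replicate 2 or 3 (adjusted p from 0.0531 to 0.075, log2 fold change from 0.70 to 0.84). EGLN3, an oxygen-sensing prolyl hydroxylase, stood at 9.51, 10 and 9.17 CPM under DMSO and 124, 114 and 108 CPM in DTPs (log2 fold change 3.60 ± 0.087, adjusted p = 4.81e-09).

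Of 26 genes of cholesterol and fatty acid synthesis, 21 were called lower and 1, FADS2, higher (median -0.93). SCD, the stearoyl-CoA desaturase, was at 136, 691 and 514 CPM under DMSO and 59.3, 66.9 and 49.3 CPM in DTPs (log2 fold change -2.94 ± 0.47, adjusted p = 0.000301). The controls were wide apart. HMGCS1, an early enzyme of cholesterol synthesis, was at 121, 309 and 229 CPM under DMSO and 139, 143 and 128 CPM in DTPs (log2 fold change -0.69 ± 0.26, adjusted p = 0.0357). SQLE was at 72.3, 177 and 149 CPM under DMSO and 65.3, 58.3 and 57.9 CPM in DTPs (log2 fold change -1.14 ± 0.26, adjusted p = 0.00282). The first DMSO library was the lowest of the controls in these 3 genes and lay below all DTP values of HMGCS1. Without that library 24 of 26 were called lower, and on log2 TPM 9 were. HMGCS1 was not called without DMSO replicate 2 or 3 or DTP replicate 1, 2 or 3 (adjusted p from 0.0618 to 0.151, log2 fold change from -0.72 to -0.37).

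Lysosome and autophagy genes were mostly higher, with 25 of 31 called higher and 1, GLA, lower (median 0.71). LAMP1, a major protein of the lysosomal membrane, was at 271, 253 and 256 CPM under DMSO and 357, 337 and 327 CPM in DTPs (log2 fold change 0.39 ± 0.06, adjusted p = 0.000234). LAMP2 was at 229, 226 and 227 CPM under DMSO and 381, 382 and 358 CPM in DTPs (log2 fold change 0.71 ± 0.055, adjusted p = 1.89e-06). PSAP, the precursor of the saposins that help break down sphingolipids, was among the 5 largest rises in abundance of the whole transcriptome, at 623, 717 and 619 CPM under DMSO and 3116, 3052 and 3325 CPM in DTPs (log2 fold change 2.28 ± 0.07, adjusted p = 1.31e-08). The highest member by fold was cathepsin S, CTSS, at 0.114, 0.378 and 0.468 CPM under DMSO and 4.03, 3.91 and 3.66 CPM in DTPs (log2 fold change 3.57 ± 0.40, adjusted p = 2.49e-05). TFEB, the transcription factor of lysosome genes, was called higher (log2 fold change 2.15 ± 0.20, adjusted p = 5.74e-06) and its relative TFE3 was not (log2 fold change 0.043 ± 0.076, adjusted p = 0.627). GABARAPL1, an autophagosome protein picked after its value was seen, rose from 36.3, 50.7 and 36.9 CPM under DMSO to 434, 388 and 417 CPM in DTPs (log2 fold change 3.32 ± 0.13, adjusted p = 3.99e-08). Of 13 genes linked to senescence, 9 were called higher and 1, LMNB1, lower (log2 fold change -1.35 ± 0.10, adjusted p = 1.59e-06). GLB1, the lysosomal beta-galactosidase, was at 76, 72.5 and 83.3 CPM under DMSO and 128, 127 and 119.6 CPM in DTPs (log2 fold change 0.69 ± 0.073, adjusted p = 1.62e-05). IGFBP5 was at 22.1, 58.3 and 49.3 CPM under DMSO and 645, 637 and 858 CPM in DTPs (log2 fold change 4.04 ± 0.31, adjusted p = 1.84e-06). Some members of this list, such as GLB1 and IGFBP3, are lysosomal or secreted proteins with other known roles, and CDKN2A, its defining cell-cycle inhibitor, was not called.

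Genes of stress responses were mixed. Targets of ATF4 were called higher in 5 of 20 and lower in 11 (median -0.33). ATF4 itself was at 520.4, 525 and 542 CPM under DMSO and 501, 503 and 589.6 CPM in DTPs (log2 fold change 0.0054 ± 0.071, adjusted p = 0.95). The stress factors ATF3 (log2 fold change 3.87 ± 0.38, adjusted p = 1.07e-05) and DDIT3 (log2 fold change 1.73 ± 0.29, adjusted p = 0.000445) were higher, and TRIB3 lower (log2 fold change -1.82 ± 0.18, adjusted p = 9.44e-06). Of 21 NRF2 targets and ferroptosis genes, 7 were called higher and 8 lower (median -0.02). SLC40A1, the iron exporter, was highest, at 4.51, 9.07 and 5.04 CPM under DMSO and 34.8, 37.5 and 39.98 CPM in DTPs (log2 fold change 2.58 ± 0.23, adjusted p = 4.57e-06). SLC7A11, the cystine transporter, was lowest, at 87, 95.9 and 92.1 CPM under DMSO and 40.4, 35.4 and 44.6 CPM in DTPs (log2 fold change -1.19 ± 0.093, adjusted p = 2.11e-06). Of 13 aldehyde dehydrogenases, 8 were called higher and 2 lower. ALDH1A3, the abundant member of the ALDH1A group in these cells, was not called, at 2054, 1949 and 1899.6 CPM under DMSO and 2055, 1611 and 1806 CPM in DTPs (log2 fold change -0.11 ± 0.081, adjusted p = 0.252). It was called without DTP replicate 1 (adjusted p = 0.0234, log2 fold change -0.21).

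**Figure D3:**
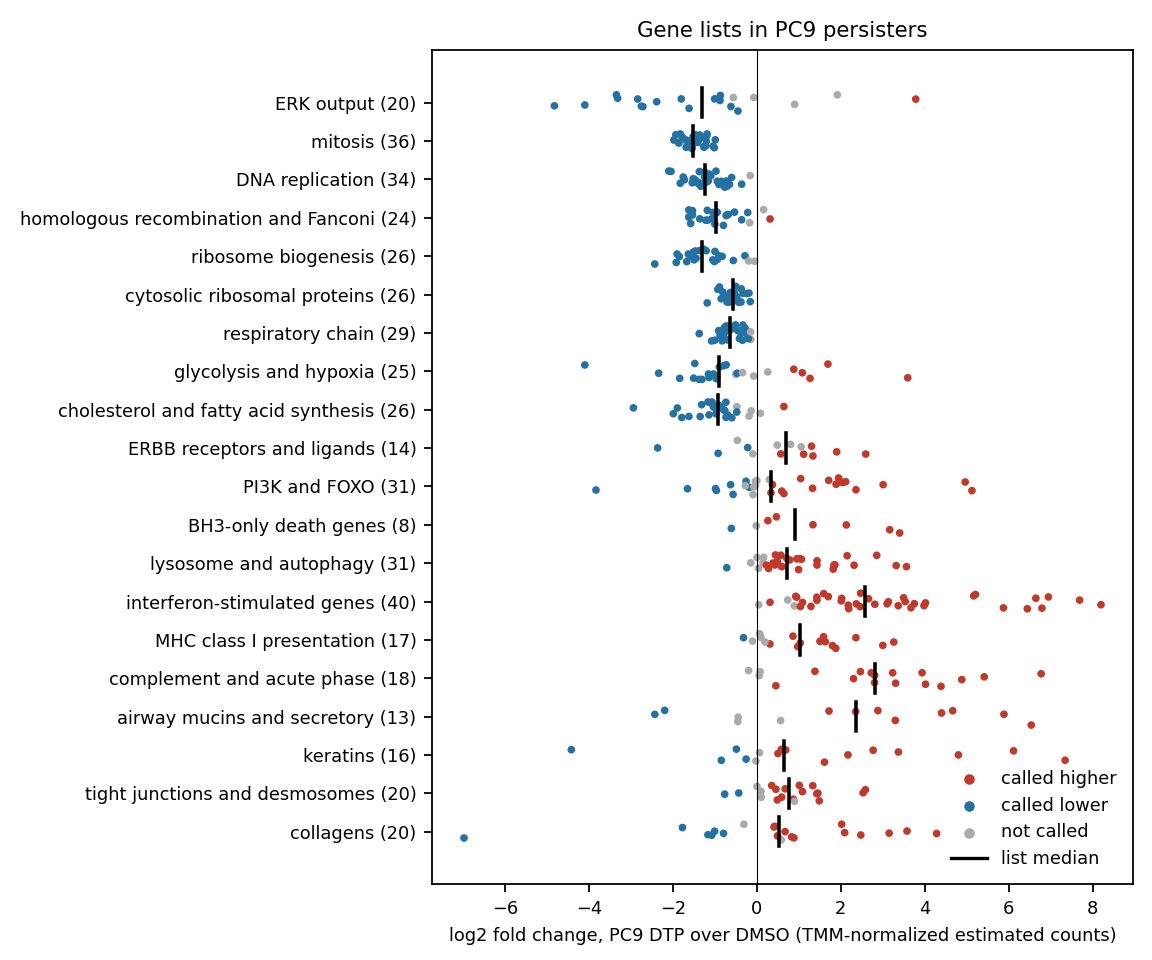
Log2 fold change (DTP over DMSO) of each tested member of 20 gene lists, coloured by call, with a bar at the list median and the number of tested members in brackets. Mitosis and ribosomal protein genes lie wholly below 0 (RPS12 turns above 0 with library size alone or on log2 TPM), interferon-stimulated genes lie at or above 0 with a median of 2.57, and receptor, keratin and collagen lists spread to both sides.

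The interferon-stimulated genes were higher almost throughout. Of 40 tested, 37 were called higher and none lower, and the median log2 fold change was 2.57, where that of all genes was 0.02. These genes are normally switched on by interferons through a complex of STAT and IRF factors, and encode sensors and blockers of viral replication. STAT2 was at 15.6, 19.7 and 24.2 CPM under DMSO and 122, 158 and 137 CPM in DTPs (log2 fold change 2.81 ± 0.16, adjusted p = 2.52e-07). IRF1 was at 16.2, 12.9 and 10.3 CPM under DMSO and 54, 48 and 56.5 CPM in DTPs (log2 fold change 2.01 ± 0.15, adjusted p = 1.55e-06). All DTP libraries lay above all DMSO libraries for both regulators. XAF1, an apoptosis-promoting member on chromosome 17 (6755447 to 6775647), stood at 0.0285, 0 and 0.0551 CPM under DMSO and 8.11, 8.41 and 8.94 CPM in DTPs. As DMSO held 3 counts of XAF1 in all, the ratio of 331 has a wide counting interval, from 113 to 1605. OAS2, a sensor that makes oligoadenylates from double-stranded RNA, was at 0.114, 0.0667 and 0.165 CPM under DMSO and 15.2, 10.2 and 12.9 CPM in DTPs (log2 fold change 6.79 ± 0.30, adjusted p = 7.52e-08). IFITM1, which blocks virus entry at membranes, was at 0, 0.178 and 0.0275 CPM under DMSO and 11.7, 17.5 and 20.1 CPM in DTPs (log2 fold change 7.69 ± 0.47, adjusted p = 4.49e-07). The genes not called were USP18, at 5.82, 5.96 and 5.4 CPM under DMSO and 5.59, 5.79 and 6.35 CPM in DTPs (log2 fold change 0.047 ± 0.15, adjusted p = 0.792), ISG15 (log2 fold change 0.90 ± 0.52, adjusted p = 0.147) and IFIH1 (log2 fold change 0.74 ± 0.57, adjusted p = 0.268), the last called without DMSO replicate 3 (adjusted p = 0.0265, log2 fold change 1.62). USP18 has a near-identical copy, USP41, with which the counting could have shared its reads. A requirement of at least 10 counts in every library left 24 members called higher, since members silent under DMSO drop out.

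The element GAAANNGAA, which IRF factors and the STAT complex with IRF9 recognize, occurs on either strand in 21 of 31 promoters of this list (67.7%) and in 8.29% of all promoters. The promoter of IFITM1 (chr11:313790-314089, plus strand, RefSeq on GRCh38.p14) is given as the list member of largest change among those that hold the element, with its matches in capitals.
IFITM1: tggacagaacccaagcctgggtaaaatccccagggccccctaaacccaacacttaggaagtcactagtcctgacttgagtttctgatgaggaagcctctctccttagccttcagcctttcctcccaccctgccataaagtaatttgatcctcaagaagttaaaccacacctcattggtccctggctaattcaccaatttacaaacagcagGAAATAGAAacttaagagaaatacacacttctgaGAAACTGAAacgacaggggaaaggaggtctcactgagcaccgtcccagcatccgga
Its 2 matches begin 40 and 6 bases before the gene start.

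Antigen presentation genes were raised beside them. Of 17 genes of the MHC class I pathway, 12 were called higher and 1, PDIA3, lower (median 1.04). PDIA3, a chaperone of class I folding, was not called on log2 TPM (log2 fold change -0.047, adjusted p = 0.532). HLA-B was at 11.8, 13.5 and 20.1 CPM under DMSO and 144, 138 and 154 CPM in DTPs (log2 fold change 3.26 ± 0.17, adjusted p = 1.73e-07). HLA-C was at 102, 99 and 90.4 CPM under DMSO and 200.4, 202 and 195 CPM in DTPs (log2 fold change 1.04 ± 0.066, adjusted p = 5.37e-07). The groups did not overlap for either gene, but the counting may divide reads between these similar genes. NLRC5, the transactivator of class I genes, was not called (log2 fold change -0.10 ± 0.13, adjusted p = 0.507). In class II, 9 of 16 genes listed were tested, with 5 called higher and none lower. CD74, the invariant chain, was at 0.285, 0.19999 and 0.248 CPM under DMSO and 3.21, 4.24 and 5.12 CPM in DTPs (log2 fold change 4.10 ± 0.32, adjusted p = 2.28e-06), HLA-DRA held 0 counts under DMSO and 7 in DTPs, and the transactivator CIITA was not called (log2 fold change -0.13 ± 0.28, adjusted p = 0.701). CD274, which encodes PD-L1, was lower, at 14.6, 10.6 and 20.7 CPM under DMSO and 2.06, 2.9 and 2.84 CPM in DTPs (log2 fold change -2.55 ± 0.26, adjusted p = 1.15e-05), as were 5 other checkpoint ligands of 14, while 8 were higher, led by VTCN1 (log2 fold change 4.80 ± 0.27, adjusted p = 2.69e-07).

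Of 25 complement and acute phase genes listed, 18 were tested, with 15 called higher and none lower (median 2.81). CFB, complement factor B, was at 5.11, 4.64 and 5.92 CPM under DMSO and 85.4, 80.8 and 87.2 CPM in DTPs (log2 fold change 4.02 ± 0.10, adjusted p = 5.36e-09). SERPING1, the C1 inhibitor, was highest by fold, at 0.114, 0.333 and 0.165 CPM under DMSO and 17.2, 25.7 and 28 CPM in DTPs (log2 fold change 6.77 ± 0.32, adjusted p = 9.71e-08). C3, the central component, was not called, at 159, 138 and 172 CPM under DMSO and 149, 124 and 136 CPM in DTPs (log2 fold change -0.19 ± 0.095, adjusted p = 0.0916). It was called without DMSO replicate 2 or DTP replicate 1 (adjusted p from 0.0214 to 0.0457, log2 fold change from -0.28 to -0.26). CD46 and CD59 were not called. C4A was called higher (log2 fold change 2.30 ± 0.47, adjusted p = 0.00145), but C4A and C4B are nearly identical and their reads can be exchanged.

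Of 29 chemokines and interleukins listed, 16 were tested. Of those 16, 9 were called higher and 3 lower, or 1 lower without DTP replicate 1 or 2. CCL5, a lymphocyte attractant, was at 0.0571, 0.156 and 0.0551 CPM under DMSO and 4.9, 4.4 and 4.49 CPM in DTPs (log2 fold change 5.57 ± 0.38, adjusted p = 8.16e-07). LIF, a gp130 cytokine, was lowest among members above 1 CPM, at 131, 126 and 127 CPM under DMSO and 71.4, 64.8 and 70.4 CPM in DTPs (log2 fold change -0.89 ± 0.066, adjusted p = 1.48e-06). Of 6 APOBEC3 cytidine deaminases 5 were called higher and none lower. APOBEC3A was at 0, 0.111 and 0.193 CPM under DMSO and 9.29, 6.78 and 5.18 CPM in DTPs (log2 fold change 6.06 ± 0.52, adjusted p = 3.78e-06). APOBEC3B, its close paralog, was at 93.5, 119 and 118 CPM under DMSO and 190.1, 202 and 170.3 CPM in DTPs (log2 fold change 0.77 ± 0.10, adjusted p = 9.03e-05). APOBEC3C was not called (log2 fold change 0.074 ± 0.073, adjusted p = 0.385). SOCS3, which damps gp130 signalling, was lower, at 43.4, 37.4 and 43.1 CPM under DMSO and 8.33, 7.89 and 13.5 CPM in DTPs (log2 fold change -2.06 ± 0.19, adjusted p = 6e-06). STAT3 was at 115, 115 and 98.7 CPM under DMSO and 240.2, 220.2 and 209 CPM in DTPs (log2 fold change 1.02 ± 0.083, adjusted p = 2.62e-06).

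Among the tested genes of mucins, junction proteins and alkaline phosphatases, most were higher. Of 22 mucin and secretory genes listed, 13 were tested, the others being too low in both groups. Of those 13, 8 were called higher and 2, SPDEF and MUC5B, lower (median 2.36). MUC5B was not called without DMSO replicate 3 or DTP replicate 1 or 3 (adjusted p from 0.0519 to 0.144, log2 fold change from -2.10 to -1.42). MUC1 was at 1.91, 4.4 and 2.95 CPM under DMSO and 79.5, 87.7 and 72 CPM in DTPs (log2 fold change 4.67 ± 0.23, adjusted p = 1.16e-07). MUC4 was at 21.8, 45.4 and 36.4 CPM under DMSO and 249, 232 and 286 CPM in DTPs (log2 fold change 2.89 ± 0.22, adjusted p = 1.82e-06). MUC16, the CA125 antigen, picked after its value was seen, went from 14.2, 34.2 and 25.4 CPM under DMSO to 1379, 1496 and 1514 CPM in DTPs (log2 fold change 5.89 ± 0.27, adjusted p = 9.33e-08). Tight junction and desmosome genes were called higher in 14 of 20 and lower in 2, PKP3 and PKP2 (median 0.77). PKP2 was not called with all 60 libraries (log2 fold change -0.43, adjusted p = 0.0598) or on log2 TPM (log2 fold change -0.16, adjusted p = 0.189). CLDN3 was highest among them by fold above 1 CPM, at 5.34, 6.2 and 5.4 CPM under DMSO and 30.7, 35.4 and 32.1 CPM in DTPs (log2 fold change 2.53 ± 0.11, adjusted p = 7.5e-08). TJP1, which encodes ZO-1, was at 159, 181 and 197 CPM under DMSO and 258, 220.1 and 259 CPM in DTPs (log2 fold change 0.46 ± 0.093, adjusted p = 0.00142). The alkaline phosphatases ALPP and ALPG were both called higher. ALPP, the placental enzyme (chromosome 2, 232378534 to 232382889), showed the largest rise in CPM of any gene, at 151, 137 and 116 CPM under DMSO and 4301, 4432 and 4067 CPM in DTPs (log2 fold change 4.99 ± 0.10, adjusted p = 3.36e-09). ALPG is nearly identical to ALPP in sequence, so its own rise (log2 fold change 4.86 ± 0.32, adjusted p = 7.37e-07) may hold reads of ALPP.

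Keratins split. Of 16 tested 10 were called higher and 4 lower (median 0.64). KRT8 was not called, at 3891, 3759.7 and 3669.9 CPM under DMSO and 4015, 3908 and 3934 CPM in DTPs (log2 fold change 0.067 ± 0.044, adjusted p = 0.199). KRT18, its partner in simple epithelia, was lower, at 2720.3, 2634 and 2651 CPM under DMSO and 1959, 1877 and 1884 CPM in DTPs (log2 fold change -0.48 ± 0.045, adjusted p = 6.94e-06). KRT19 was higher, at 1137, 1316 and 1286 CPM under DMSO and 1705, 1792 and 1809 CPM in DTPs (log2 fold change 0.50 ± 0.063, adjusted p = 5.55e-05). KRT4, a keratin of stratified mucosa, was highest, at 0.314, 0.556 and 0.441 CPM under DMSO and 55.2, 66.2 and 96.9 CPM in DTPs (log2 fold change 7.34 ± 0.29, adjusted p = 4.06e-08). KRT6B, a keratin of wounded epithelium, was lowest, at 23, 19.1 and 30.8 CPM under DMSO and 1.15, 1.11 and 1.15 CPM in DTPs (log2 fold change -4.41 ± 0.21, adjusted p = 9.47e-08). KRT8 and KRT18 have many pseudogenes. Genes of the epithelial-mesenchymal transition did not move as one: 10 of 22 were called higher and 5 lower (median 0.33), or 3 lower without DTP replicate 2. CDH1, E-cadherin, was at 309.9, 295 and 327 CPM under DMSO and 701, 631 and 636 CPM in DTPs (log2 fold change 1.08 ± 0.065, adjusted p = 3.85e-07). VIM, vimentin, was lower, at 24.6, 18.8 and 30.1 CPM under DMSO and 18.7, 8.64 and 17.2 CPM in DTPs (log2 fold change -0.72 ± 0.27, adjusted p = 0.0332). It was not called without DMSO replicate 1 or 3 or DTP replicate 2 (adjusted p from 0.0545 to 0.131, log2 fold change from -0.71 to -0.45). FN1, fibronectin, a mesenchymal matrix gene, was higher, at 163, 107 and 165 CPM under DMSO and 1976, 1488 and 2663 CPM in DTPs (log2 fold change 3.82 ± 0.23, adjusted p = 4.1e-07). EPCAM, an epithelial adhesion gene, was lower, at 549.5, 499 and 556 CPM under DMSO and 235, 252 and 221 CPM in DTPs (log2 fold change -1.18 ± 0.07, adjusted p = 3.5e-07). Thus members on both the epithelial and the mesenchymal side rose and fell.

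Alveolar lineage genes were called higher in 9 of 16 and lower in 4 (median 0.78), mostly from low levels. Without DMSO replicate 1, DTP replicate 1 or DTP replicate 2, 2 were called lower. NKX2-1, the lineage factor of the lung, was at 0.856, 0.644 and 0.551 CPM under DMSO and 2.63, 2.78 and 3.8 CPM in DTPs (log2 fold change 2.17 ± 0.30, adjusted p = 0.000124). CLIC5, a chloride channel protein of flat alveolar cells, was highest, at 0.542, 1.42 and 0.578 CPM under DMSO and 45.8, 49.4 and 46.7 CPM in DTPs (log2 fold change 5.74 ± 0.26, adjusted p = 7.59e-08). SFTPB was not called (log2 fold change 0.74 ± 0.51, adjusted p = 0.218), SFTPC held 8 counts over the 3 DTP libraries and 1 over the DMSO libraries, and ETV5 was lowest (log2 fold change -2.71 ± 0.25, adjusted p = 6.31e-06).

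Of 20 collagens 12 were called higher and 6 lower (median 0.54). COL16A1 rose from 11.8, 13.1 and 11.8 CPM under DMSO to 213, 270.2 and 230.0 CPM in DTPs (log2 fold change 4.28 ± 0.11, adjusted p = 4.81e-09), and COL13A1, a transmembrane collagen, fell from 29.3, 35.6 and 36.6 CPM under DMSO to 0.219, 0.188 and 0.376 CPM in DTPs (log2 fold change -6.97 ± 0.21, adjusted p = 1.27e-08), the largest fall by fold of any gene averaging 1 CPM or more. Integrins and laminins gave 13 of 24 higher and 8 lower. ITGA2, a collagen receptor subunit, was lower, at 361, 449 and 508 CPM under DMSO and 137, 87.7 and 111 CPM in DTPs (log2 fold change -1.97 ± 0.16, adjusted p = 3.27e-06). ITGB2, a subunit best known from leukocytes, was higher, at 4.71, 7.71 and 5.56 CPM under DMSO and 29.5, 37.9 and 26.9 CPM in DTPs (log2 fold change 2.38 ± 0.20, adjusted p = 2.84e-06). Of 20 YAP and TEAD targets 11 were called higher and 3 lower (median 0.50). CCN2 was at 4.42, 2.33 and 1.63 CPM under DMSO and 38.6, 27.9 and 75.2 CPM in DTPs (log2 fold change 4.09 ± 0.43, adjusted p = 1.61e-05). ANKRD1 was at 39.8, 46 and 39.3 CPM under DMSO and 36.4, 36.6 and 39.8 CPM in DTPs (log2 fold change -0.15 ± 0.088, adjusted p = 0.152). These commonly used targets thus differed. YAP1 (log2 fold change -0.13 ± 0.057, adjusted p = 0.0621) and WWTR1 (log2 fold change -0.14 ± 0.091, adjusted p = 0.188) were not called, but WWTR1 was called without DMSO replicate 2 (adjusted p = 0.0174, log2 fold change -0.24).

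Of 19 antigens that antibody drugs are made against, 10 were called higher and 4 lower (median 1.17). MSLN, mesothelin, held 0 counts in each DMSO library and 2.44, 3.6 and 3.99 CPM in the DTP libraries, at least 132-fold higher against a floor of 3 counts over the DMSO libraries. CEACAM6 was lower, at 125, 369.7 and 358 CPM under DMSO and 29.1, 33.1 and 26.5 CPM in DTPs (log2 fold change -3.27 ± 0.35, adjusted p = 1.9e-05), with the first DMSO library lowest of the controls but still above the DTP values.

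KLF and epithelial transcription factor genes were called higher in 11 of 19 and lower in 1 (median 0.65). Several other lists moved little as groups. The medians of the WNT, Notch, chromatin, primary cilium and ABC transporter lists lay between -0.039 and 0.19, and each had members called in both directions. HDAC5 was the chromatin regulator highest by fold, at 10.05, 17.9 and 15.6 CPM under DMSO and 103, 108 and 102 CPM in DTPs (log2 fold change 2.84 ± 0.17, adjusted p = 4.38e-07). DNMT1, the maintenance methyltransferase, was lowest, at 284, 266 and 284 CPM under DMSO and 127, 135 and 116 CPM in DTPs (log2 fold change -1.14 ± 0.072, adjusted p = 5.19e-07). EZH2, the methyltransferase of PRC2, was at 73.2, 69.5 and 74.4 CPM under DMSO and 36.1, 38.9 and 35.9 CPM in DTPs (log2 fold change -0.97 ± 0.072, adjusted p = 1.54e-06). WNT6 (log2 fold change 4.03 ± 0.17, adjusted p = 6.05e-08) and the hedgehog factor GLI2 (log2 fold change 2.52 ± 0.32, adjusted p = 5.57e-05) were higher, and TCF7 lower (log2 fold change -2.08 ± 0.13, adjusted p = 4.65e-07). KCTD5 was at 71.5, 68.9 and 69.8 CPM under DMSO and 50.9, 43.8 and 48.9 CPM in DTPs (log2 fold change -0.55 ± 0.077, adjusted p = 0.000123). NF1, a brake on RAS, was not called, at 93.2, 105 and 109 CPM under DMSO and 108, 82.2 and 98.9 CPM in DTPs (log2 fold change -0.094 ± 0.10, adjusted p = 0.438).

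Among genes averaging 1 CPM or more whose groups did not overlap, the fitted fold was highest for MYL7, UBD, NPY4R2, AC011462.1, MSLN, COL20A1, SULT1E1, LRRC32, MMP28 and CAPN6. Fitted values of genes at or near 0 under DMSO depend on the prior count, and their folds are known only as bounds or wide intervals, so they carry no order. MYL7, an atrial myosin light chain (chromosome 7, 44138864 to 44141332), held 0 counts in each DMSO library and 7.75, 12.3 and 13.6 CPM in the DTP libraries, at least 445-fold higher against the same floor. UBD, which encodes the ubiquitin-like FAT10, was at 0 under DMSO and 4.27, 3.44 and 4.82 CPM in DTPs, at least 163-fold higher. NPY4R2, a neuropeptide Y receptor with a near-identical copy, NPY4R, held 2 counts under DMSO and stood at 25, 28 and 21.5 CPM in DTPs, a ratio of 1436 with a counting interval from 397 to 11860. The largest falls were those of COL13A1, ACOX2, NTSR1, HMGA2, IL1RL1, PADI3, TOX2, CYP24A1, DUSP6 and AC012184.2. HMGA2, a chromatin protein of embryonic and tumour cells, fell from 146, 166 and 223 CPM under DMSO to 2.52, 4.17 and 4.78 CPM in DTPs (log2 fold change -5.53 ± 0.23, adjusted p = 5.89e-08), and NTSR1, the neurotensin receptor, from 25.3, 23.1 and 31.7 CPM under DMSO to 0.329, 0.848 and 0.355 CPM in DTPs (log2 fold change -5.70 ± 0.29, adjusted p = 1.34e-07). These 20 genes were read from the same contrast and are given as values.

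In absolute abundance the ranking differed. After ALPP the largest rises in CPM were those of IGFBP3, from 552, 715 and 607 CPM under DMSO to 3475, 3333 and 3227 CPM in DTPs, PSAP, FN1 and GPRC5A, from 899, 1123 and 1007 CPM under DMSO to 2817, 2314 and 2505 CPM in DTPs. The largest falls were those of MT-ND4, HSP90AA1, GAPDH, MT-CO2 and MT-ND2. HSP90AA1, the inducible HSP90 chaperone, fell from 8624, 7915 and 8329.7 CPM under DMSO to 2915, 3067 and 2744 CPM in DTPs (log2 fold change -1.51 ± 0.056, adjusted p = 3.09e-08). GAPDH is a glycolytic enzyme, and the other 3 are encoded in the mitochondrial genome.

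Persisters were next set against PC9 cells after 24 h of drug, to ask how cells that outlasted 21 days differ from those on the first day. This comparison does not use the DMSO libraries. Of 14467 genes tested 19.2% were called higher in DTPs and 20.6% lower, and 1295 differed at least 2-fold, 905 of them higher. CPM values in it were normalized over the acute and DTP libraries alone and differ slightly from those above. Of 20 ERK output genes 7 were called higher in DTPs and none lower (median 0.81). DUSP6 was at 0.532, 0.324 and 1.35 CPM after 24 h and 1.63, 1.04 and 2.27 CPM in DTPs (log2 difference 1.17 ± 0.53, adjusted p = 0.11). SPRY4 was at 0.346, 0.416 and 2.33 CPM after 24 h and 2.69, 1.58 and 2.27 CPM in DTPs (log2 difference 1.08 ± 0.66, adjusted p = 0.222). Neither was called. EGFR was called higher in DTPs, at 1147, 1157 and 1075 CPM after 24 h and 1596, 1474 and 1553 CPM in DTPs (log2 difference 0.45 ± 0.055, adjusted p = 0.000369). DNA replication genes were called higher in 24 of 34 and lower in none (median 0.71) and recombination genes in 15 of 24. Of 36 mitosis genes, 3 were called higher, 4 lower and 29 were not called (median -0.10). Both shares lie under those of all genes tested. UHRF1 was at 23.8, 13.7 and 25.7 CPM after 24 h and 29.9, 26.7 and 28.1 CPM in DTPs (log2 difference 0.43 ± 0.20, adjusted p = 0.128). MKI67 was at 207, 131 and 209.8 CPM after 24 h and 151, 157 and 175 CPM in DTPs (log2 difference -0.18 ± 0.16, adjusted p = 0.413). Neither of these was called.

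Interferon-stimulated genes were higher in persisters than after 24 h in 33 of 40 and lower in none (median 1.17). OAS2 was at 0.346, 0.485 and 0.389 CPM after 24 h and 15.3, 10.2 and 13.1 CPM in DTPs (log2 difference 4.97 ± 0.24, adjusted p = 6.43e-06). STAT2 was at 113, 119 and 97.9 CPM after 24 h and 123, 158 and 139 CPM in DTPs (log2 difference 0.35 ± 0.11, adjusted p = 0.029). The difference was not shared by the whole antigen presentation pathway, where 6 of 17 class I genes were called higher and 6 lower (median -0.06). All 26 ribosomal protein genes were lower in DTPs (median -0.55), and 25 of 29 respiratory chain genes (median -0.32) and 15 of 26 cholesterol and fatty acid genes (median -0.50). Scaling by library size alone and log2 TPM values were not tried in this comparison, so how far these counts depend on the scaling was not tested. Called lower in DTPs than at 24 h were also both alkaline phosphatases, 4 of 6 APOBEC3 genes and 9 of 13 aldehyde dehydrogenases, with 0, 0 and 1 called higher. ALPP was at 5082, 5853 and 5283 CPM after 24 h and 4346, 4429 and 4123 CPM in DTPs (log2 difference -0.33 ± 0.063, adjusted p = 0.00346). APOBEC3A was at 16.5, 13.2 and 15 CPM after 24 h and 9.39, 6.78 and 5.25 CPM in DTPs (log2 difference -1.07 ± 0.20, adjusted p = 0.00354). BMF was at 209, 184 and 234 CPM after 24 h and 104, 99.5 and 109 CPM in DTPs (log2 difference -1.003 ± 0.091, adjusted p = 9.82e-05). The genes highest in DTPs by fold were IGFL1, at 0.426, 0.601 and 0.311 CPM after 24 h and 29.9, 49.5 and 36.4 CPM in DTPs (log2 difference 6.41 ± 0.28, adjusted p = 4.26e-06), MYL7, MMP28, CAPN6 and OAS2, and the lowest AC012184.2, ESX1, CYP24A1, CCK and CASP14, a caspase of keratinocytes at 79.2, 68.6 and 40.9 CPM after 24 h and 6.01, 3.65 and 5.91 CPM in DTPs (log2 difference -3.60 ± 0.28, adjusted p = 4.71e-05).

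**Figure D4:**
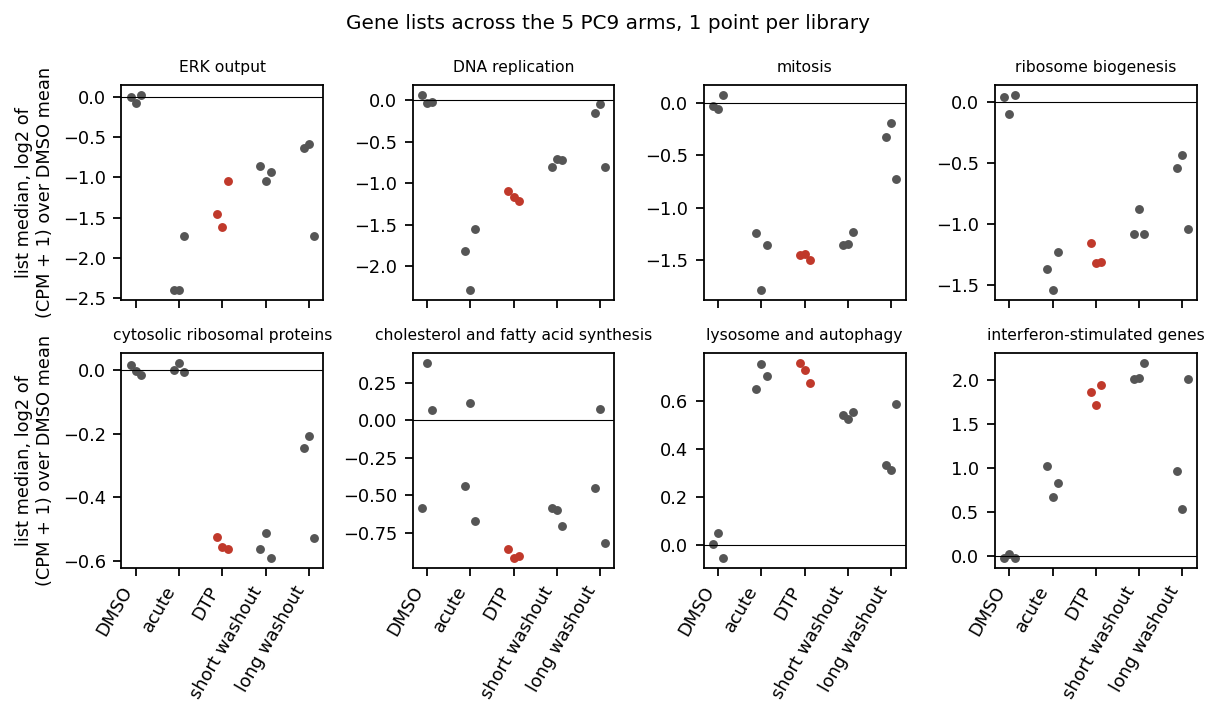
Median over each list's members of log2((CPM + 1) / (DMSO mean CPM + 1)), 1 point per PC9 library, for 8 lists in the 5 PC9 arms, with DTP in red and 15 libraries normalized together. Replication genes are lowest in the acute arm, ribosomal protein genes lie near 0 in the acute arm and below it in the DTP arm, and interferon-stimulated genes are higher in DTP than in acute libraries.

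The DTP effect of PC9 was then compared with that of each other line by the interaction of line and treatment, in 12 libraries each. The DTP and DMSO libraries of the lines are independent, and the lines differ in EGFR genotype and depth. Against HCC827, 17.3% of 15127 genes had a higher and 19.6% a lower effect in PC9, against H1975 22.5% and 19.1% of 15530 genes, and against HCC2935 21.1% and 23.0% of 15272 genes. Which direction held more calls hung on single libraries in the first 2 comparisons. For H1975 it turned without any 1 of its DMSO libraries (2707 higher and 3134 lower without replicate 1) or its DTP replicate 1. For HCC827 it turned without its DMSO replicate 3, its DTP replicate 1 or any 1 PC9 DTP library. Interferon-stimulated genes had a higher DTP effect in PC9 than in each other line, with 26 of 40 called for HCC827, 37 for H1975 and 37 for HCC2935 (median differences 1.66, 3.38 and 2.55). The other direction was called in 1, 0 and 0 members. The median difference from H1975 exceeds the median in PC9 itself, 2.57. A higher effect in PC9 thus need not mean that these genes rose in the other line. In PC9 the mean STAT2 level was 20.02 ± 4.3 CPM under DMSO and 144 ± 18.6 CPM in DTPs, and in HCC827 64.7 ± 10.1 and 173 ± 5.21 CPM (mean ± SD of 3 libraries, log2 effects apart by 1.43 ± 0.22, adjusted p = 0.000356). In PC9 the mean STAT2 level was 20.5 ± 4.39 CPM under DMSO and 148 ± 18.8 CPM in DTPs, and in H1975 42.6 ± 7.27 and 73.5 ± 26.7 CPM (mean ± SD of 3 libraries, log2 effects apart by 2.06 ± 0.35, adjusted p = 0.00046). In PC9 the mean STAT2 level was 20.7 ± 4.48 CPM under DMSO and 143 ± 18.8 CPM in DTPs, and in HCC2935 49 ± 11.1 and 101 ± 16.4 CPM (mean ± SD of 3 libraries, log2 effects apart by 1.75 ± 0.26, adjusted p = 0.000111). The STAT2 effect was higher in PC9 in each of the 3 tests.

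Mucin and secretory genes were called higher in PC9 in 6 of 15, 7 of 13 and 9 of 17 tested members against HCC827, H1975 and HCC2935, and lower in none (median differences 2.65, 2.59 and 3.09). Tight junction and desmosome genes were called higher in 13 of 21, 12 of 20 and 10 of 21, and lower in 0, 2 and 2. BH3-only genes were called higher in 4, 6 and 4 of 8, with none lower. Class I presentation genes were called higher in 14, 11 and 14 of 17, and 0, 3 and 2 lower. Ribosome biogenesis genes had a lower effect in PC9 in 21, 21 and 19 of 26 and a higher one in 1, 1 and 0 (median differences -0.78, -0.70 and -0.64). By contrast the median effect on mitosis genes differed little between the lines (median differences -0.11, 0.14 and 0.18 from HCC827, H1975 and HCC2935). Of 36 members, 2 were called lower in PC9 than in HCC827, none lower than in H1975 or HCC2935, and 0, 1 and 5 higher. ERK output differed by line: 13 of 20 genes had a lower effect in PC9 than in HCC827 and none a higher (median -1.18), while 5 and 6 of 20 were higher and lower against H1975, and 4 and 4 against HCC2935. In PC9 the mean DUSP6 level was 46.9 ± 7.78 CPM under DMSO and 1.69 ± 0.634 CPM in DTPs, and in HCC827 19.2 ± 2.18 and 15.1 ± 8.92 CPM (mean ± SD of 3 libraries, log2 effects apart by -4.44 ± 0.50, adjusted p = 3.54e-05). Cytosolic ribosomal protein genes had a lower effect in PC9 than in HCC827 in 17 of 26 and than in H1975 in 24 of 26 (median differences -0.50 and -0.85). The difference from H1975 is larger than the median fall in PC9 itself, -0.56, so these genes need not have fallen in H1975. Against HCC2935, 15 of 26 had a higher effect in PC9 and 3 a lower.

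**Figure D5:**
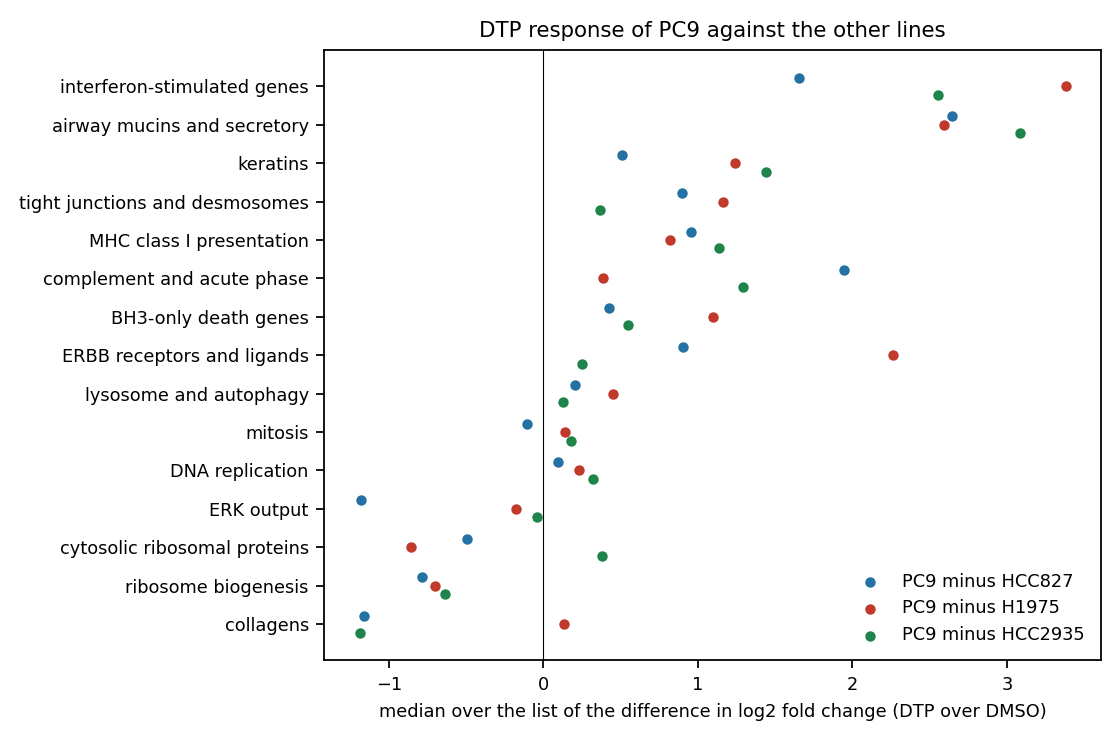
Median over each of 15 gene lists of the difference between the DTP effect of PC9 and that of HCC827 (blue), H1975 (red) and HCC2935 (green), in log2 units, where values above 0 mean a higher effect in PC9. The interferon-stimulated and mucin lists lie to the right for all 3 lines, ribosome biogenesis lies to the left for all 3, and mitosis lies near 0.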

How the data were processed

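RNA libraries (Illumina mRNA TruSeq, paired-end) were made from 4 lines in 5 arms of 3 libraries, and labels give each library's group. As deposited by the authors, the tables hold estimated counts by gene symbol without normalization between libraries, and log2 TPM values to which 0.01 had been added before the log. The submitters' processing notes name hg38, HISAT2 2.1.0 and Salmon 0.8.2. How each tool was used, the annotation and any use of strand are not given in the sources used here.

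Estimated counts were rounded and tested in edgeR 4.0.16 (R 4.3.3) with TMM normalization, the default expression filter, the quasi-likelihood test and Benjamini-Hochberg adjustment over all genes tested. PC9 DTPs were compared with DMSO and with acute libraries, and with each other line by an interaction term in 12 libraries. The paper states no model for these libraries. The 6 main libraries held 34679067 to 47111694 estimated counts. The mean squared difference between replicates was 16.9 to 25.99 times that expected from counting error alone. On simulated counts for the main comparison, 93% of genes changed by 1 on the log2 scale and 97% of genes changed by 2 were recovered, each of 100, with 5.47% false calls. The simulation changed few genes at a fixed spread, while 71.3% of genes were called in the data. Scaling and false calls at such a share were thus not tested. For the differences from HCC827, H1975 and HCC2935, 51%, 59% and 48% of genes changed by 1 were recovered, so differences of that size can be missed there.

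Gene lists (55), the rules for named genes and the tests were chosen with earlier results of these data known. Genes were named as the highest and lowest of a list averaging 1 CPM or more, its first 3 members, the 10 highest and lowest overall without overlap between groups, the 5 largest rises and falls in CPM, the 5 highest and lowest of each other comparison, and genes studied in the paper. Other genes were picked with values known. Intervals and floors for near-silent genes cover counting error only. Alternatives were DESeq2 1.42.0, other scalings and filters, limma 3.58.1 on the deposited log2 TPM, a stricter threshold, more libraries in the fit, each library left out and a replicate block. Of 213 genes named with GENCODE release 29 annotation, 103 overlap a gene on the opposite strand and 75 one on the same strand, whose reads may not be told apart, and 30 have annotated pseudogenes. VEGFA and KRT86 were not analysed here, and a few genes that the naming rule selects are not reported here.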

Additional observations from a re-analysis of the deposited data

Results flagged for a closer look

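The DTP effect of PC9 differed from that of another line, by the interaction of line and treatment, in 5584 genes for HCC827, 6460 for H1975 and 6738 for HCC2935 (edgeR, adjusted p under 0.05). Genes are named at the ends of each comparison by their log2 difference, and values are group means ± SD of 3 libraries. A fitted difference of a gene with a group near 0 rests on few counts.

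TAC3 was at 0.0413 ± 0.0224 CPM under DMSO and 16.1 ± 3.75 CPM in DTPs of PC9, and at 0.0290 ± 0.0502 and 0.0163 ± 0.0282 CPM in HCC827 (log2 difference 9.22 ± 2.05, adjusted p = 0.00382). IGFN1 was at 44.8 ± 6.35 CPM under DMSO and 3.02 ± 0.354 CPM in DTPs of PC9, and at 1.93 ± 1.37 and 296 ± 189 CPM in HCC827 (log2 difference -11.17 ± 0.83, adjusted p = 1.44e-06). COL13A1 was at 34.2 ± 3.84 CPM under DMSO and 0.271 ± 0.107 CPM in DTPs of PC9, and at 4.66 ± 1.81 and 12.5 ± 3.22 CPM in HCC827 (log2 difference -8.36 ± 0.46, adjusted p = 2.41e-07). MMP2 was at 0.693 ± 0.294 CPM under DMSO and 0.0639 ± 0.0925 CPM in DTPs of PC9, and at 0.611 ± 0.277 and 14.2 ± 17.7 CPM in HCC827 (log2 difference -7.87 ± 1.43, adjusted p = 0.00112). ACOX2 was at 6.54 ± 0.371 CPM under DMSO and 0.0619 ± 0.0727 CPM in DTPs of PC9, and at 0.968 ± 0.330 and 2.14 ± 0.508 CPM in HCC827 (log2 difference -7.85 ± 0.75, adjusted p = 1.06e-05). Also at the higher end against HCC827 were LY6G6C, MSLN, AC011462.1 and F5, and at the lower end INSYN2B, with at least 1 group wholly at 0, so no fitted size is given.

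AC007325.2 was at 0.0297 ± 0.0515 CPM under DMSO and 4.11 ± 1.04 CPM in DTPs of PC9, and at 1.11 ± 0.710 and 0.106 ± 0.0412 CPM in H1975 (log2 difference 10.45 ± 1.02, adjusted p = 7.1e-06). NTSR1 was at 27.7 ± 4.51 CPM under DMSO and 0.541 ± 0.306 CPM in DTPs of PC9, and at 0.223 ± 0.116 and 0.460 ± 0.176 CPM in H1975 (log2 difference -6.69 ± 0.59, adjusted p = 3.36e-06). MGAT4C was at 0.335 ± 0.239 CPM under DMSO and 0.125 ± 0.00887 CPM in DTPs of PC9, and at 0.260 ± 0.162 and 9.63 ± 5.54 CPM in H1975 (log2 difference -6.62 ± 0.98, adjusted p = 0.00018). COL13A1 was at 35.1 ± 3.98 CPM under DMSO and 0.278 ± 0.109 CPM in DTPs of PC9, and at 14.5 ± 3.38 and 6.82 ± 1.69 CPM in H1975 (log2 difference -5.85 ± 0.38, adjusted p = 3.01e-07). AMOT was at 93.7 ± 11.5 CPM under DMSO and 328 ± 36.7 CPM in DTPs of PC9, and at 0.0779 ± 0.0487 and 15.5 ± 7.73 CPM in H1975 (log2 difference -5.76 ± 0.67, adjusted p = 3.13e-05). Also at the higher end against H1975 were RGCC, COL20A1, AC011462.1 and MYL7, and at the lower end AC034102.2, with at least 1 group wholly at 0, so no fitted size is given.

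NPY4R2 was at 0.02003 ± 0.0347 CPM under DMSO and 25.6 ± 3.24 CPM in DTPs of PC9, and at 12.6 ± 1.81 and 11.8 ± 2.01 CPM in HCC2935 (log2 difference 10.28 ± 0.47, adjusted p = 9.62e-09). IFITM1 was at 0.0713 ± 0.0996 CPM under DMSO and 16.9 ± 4.5 CPM in DTPs of PC9, and at 4.86 ± 4.59 and 1.28 ± 1.03 CPM in HCC2935 (log2 difference 9.60 ± 1.15, adjusted p = 2.18e-05). XYLT1 was at 4.94 ± 2.74 CPM under DMSO and 0.801 ± 0.394 CPM in DTPs of PC9, and at 0.0595 ± 0.0708 and 3.09 ± 1.04 CPM in HCC2935 (log2 difference -8.22 ± 0.96, adjusted p = 1.71e-05). MMP2 was at 0.717 ± 0.302 CPM under DMSO and 0.0636 ± 0.0921 CPM in DTPs of PC9, and at 0.548 ± 0.295 and 11.2 ± 0.784 CPM in HCC2935 (log2 difference -7.74 ± 0.84, adjusted p = 8.81e-06). CRTAC1 was at 0.0870 ± 0.0826 CPM under DMSO and 0.00938 ± 0.0163 CPM in DTPs of PC9, and at 0.129 ± 0.0790 and 3.84 ± 0.735 CPM in HCC2935 (log2 difference -7.66 ± 1.26, adjusted p = 0.000279). NTSR1 was at 28 ± 4.7 CPM under DMSO and 0.525 ± 0.299 CPM in DTPs of PC9, and at 0.1002 ± 0.0586 and 0.306 ± 0.0525 CPM in HCC2935 (log2 difference -7.26 ± 0.71, adjusted p = 3.55e-06). Also at the higher end against HCC2935 were AL132780.3, AC011462.1 and MSLN, and at the lower end AC034102.2, with at least 1 group wholly at 0, so no fitted size is given.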

How the results depend on the processing

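The number of genes called in PC9 DTPs against DMSO lay between 8612 and 10525 under every alternative outside the omission of a library. Leaving out each library in turn gave 9584 to 9914 genes called there, 4543 to 5218 for DTPs against acute, and 4621 to 6102, 5697 to 7066 and 6113 to 6628 for the differences from HCC827, H1975 and HCC2935. At an adjusted p under 0.01, counts fell to 3467 for DTPs against acute (1586 higher and 1881 lower), 3444 for HCC827 (1647 and 1797) and 4209 for H1975 (2272 and 1937). The split into higher and lower calls followed the scaling, with 6040 higher and 4241 lower with library size alone and 6592 higher and 3475 lower on log2 TPM.

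Of 210 genes named and tested, 36 changed their call or sign under at least 1 alternative. On log2 TPM the sign turned for BCL2L1 (0.046), BID (0.26), EGFR (0.052) and RPS12 (0.11), and for RPS12 with library size alone (0.0040). With DESeq2, CDKN1A (log2 fold change 0.72, adjusted p = 0.0578), HMGCS1 (log2 fold change -0.67, adjusted p = 0.0806) and VIM (log2 fold change -0.71, adjusted p = 0.0906) were not called, and on log2 TPM neither were HMGCS1, VIM, BIK, MUC5B or SQLE (adjusted p between 0.0856 and 0.429). Of 1760 list counts under alternatives, 139 moved by over 1.5 times, mostly counts of few genes. Among the larger counts were respiratory chain genes lower, 27 to 17, and cholesterol and fatty acid genes lower, 21 to 9, both on log2 TPM, and interferon-stimulated genes higher, 37 to 24 with 10 or more counts required in every library. Apart from this last filter, which drops genes silent under DMSO, the cause of these changes was not tested.

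Same-numbered DMSO and DTP libraries correlated at 0.0103, 0.0793 and -0.058 in their deviations from the group mean, under the 0.1 required for pairing. Same-numbered acute and DTP libraries correlated at -0.035, 0.0905 and 0.104, the last above it. With 3 libraries a group, these values cannot decide whether replicate numbers pair the libraries, and the main fits did not use the numbers. With the replicate number as a block, 10045 genes were called in DTPs against DMSO, 5433 against acute, and 4905, 6061 and 6123 in the comparisons with HCC827, H1975 and HCC2935. Of these, 9924, 5201, 4753, 5831 and 5978 were also called without the block. Among the genes named, the block ended the call of MUC5B (log2 fold change -2.19, adjusted p = 0.0549), and C3 (log2 fold change -0.19, adjusted p = 0.0408) and EGF (log2 fold change 1.10, adjusted p = 0.0127) were called with it.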

Other observations

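The washout arms of PC9, in which persisters were returned to medium without drug for 24 h (short) or 7 days (long), entered no comparison. On the scale of the arm plot, the list median of the interferon-stimulated genes stood at 1.86, 1.71 and 1.94 in the DTP libraries, at 2.01, 2.02 and 2.19 after the short washout and at 0.97, 0.52 and 2.002 after the long washout. Mitosis genes stood at -1.36, -1.35 and -1.23 after the short washout and at -0.32, -0.19 and -0.72 after the long one. DNA replication genes stood at -0.80, -0.71 and -0.72 and then at -0.16, -0.044 and -0.81. After 7 days, replicate 3 lay further from DMSO than replicates 1 and 2 in all 3 lists. Alkaline phosphatases stood at 3.07, 2.63 and 3.79 after the long washout, still above the DMSO mean in each library.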
